A study of Mus musculus with 6 samples.

Results

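The kinesin motor genes of the mouse cerebral cortex were described from Affymetrix mouse array strips, which measure each transcript with 1 or more probe sets. A probe set was taken as a kinesin probe set when its gene symbol began with Kif, Kifc or Klc followed by a digit, or was Kifap3, which gave 113 of 45077 probe sets and 45 of 22527 genes. Of 47 protein-coding genes that RefSeq (GRCm38.p6) names this way, 45 had a probe set, and Kif19a and Kif28 had none. Cortex came from male mice, with 2 samples in each of 3 groups. The labels give their age as 16 weeks, which in the methods is the age of the mice taken into the study, so that they were older when the cortex was taken. SAMR1, the senescence-resistant strain that served as normally aging control, was given water (SAMR1 + Water), and SAMP8, a senescence-accelerated strain, was given water (SAMP8 + Water) or sugarcane top ethanolic extract, STEE, by mouth at 20 mg/kg (SAMP8 + STEE). Dosing lasted 30 days and went on through 8 days of behavioral tests, and the methods state that all mice of the study drank BrdU, a label of dividing cells, during the treatment. SAMP8 and SAMR1 are separate inbred strains, so that genetic background and senescence-proneness cannot be told apart in their comparison.

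Kinesins are motor proteins that walk along microtubules by hydrolysing ATP, most of them toward the plus end and therefore from the neuronal cell body into the axon. Conventional kinesin, or kinesin-1, joins a pair of heavy chains from Kif5a, Kif5b or Kif5c with a pair of light chains from the Klc genes, and carries mitochondria, membrane vesicles and other cargo. Kif5a and Kif5c are enriched in neurons, whereas Kif5b is made in most cell types. Kinesin-2 and kinesin-3 motors carry ciliary, synaptic-vesicle and endosomal cargo, several other families act on the mitotic spindle, and kinesin-13 motors take microtubules apart at their ends.

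Every value here is the authors' bi-weight average of the log2 signal of a group, called its mean throughout. Every difference is the difference between 2 such means on the log2 scale. Signals given in a row follow the order SAMR1, SAMP8 control, STEE-fed SAMP8. The strain difference and the difference with STEE share the SAMP8 control mean. An error in that mean alone moves them in opposite directions. Values for single mice were not analysed here, so no difference carries a standard error, a test or a p-value, and no statement is made on whether a difference exceeded the spread between mice. A difference was counted when it reached 1.2-fold, which is 0.263 on the log2 scale, and counts of kinesins past it are given beside the same share over the whole array. Because the tissue is a mixture of cells, fewer cells of a type and less RNA per cell cannot be told apart.

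The kinesin genes as a group showed nearly the same signal in the 2 strains. With each gene read at its brightest probe set, SAMP8 control lay below SAMR1 for 21 of the 45 genes, above it for 22 and level for 2, with a median difference of 0.00 and a range of -0.35 to 0.22. The median over all genes was 0.00 as well, and the median size of the difference was 0.06 for kinesins and 0.07 for all genes. Only Kif1c and Kif13a reached 1.2-fold by this probe set, both lower in SAMP8 control. This was 4.44% of the kinesin genes, whereas 6.86% of all genes reached 1.2-fold in either direction and 3.19% did so downward. The gene with the largest single difference, Kif5b, is not among them, because the difference lay in 1 of its probe sets that was not its brightest.

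Kif5b is the ubiquitous kinesin-1 heavy chain, and 6 probe sets on the array carried its symbol. Probe set 1418429_PM_at had a mean signal of 8.37 in SAMR1 and 6.36 in each SAMP8 group. The strain difference was -2.01, a signal 4.03 times lower in linear terms, and the difference with STEE was 0.00. The signal at this probe set was therefore lower by the same amount with and without the extract.

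The other Kif5b probe sets did not share it. Probe set 1418430_PM_at, the brightest, read 9.38 in SAMR1, 9.35 in SAMP8 control and 9.36 with STEE. Probe set 1418427_PM_at read 9.24, 9.16 and 9.12 in the same order, and 1418428_PM_at read 8.90, 8.92 and 9.05. For these probe sets the strain difference lay between -0.08 and 0.02. Probe set 1418431_PM_at read 8.64, 8.47 and 8.45, a strain difference of -0.17. All 4, together with 1418429_PM_at, were designed against the same transcript according to the array annotation in the tables. The last, 1453524_PM_at, was designed against another transcript and was dim at 3.67, 3.50 and 3.52. Averaged over all 6 probe sets, Kif5b differed by -0.407 between the strains, and over the 5 without 1418429_PM_at it differed by -0.086.

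**Figure D1:**
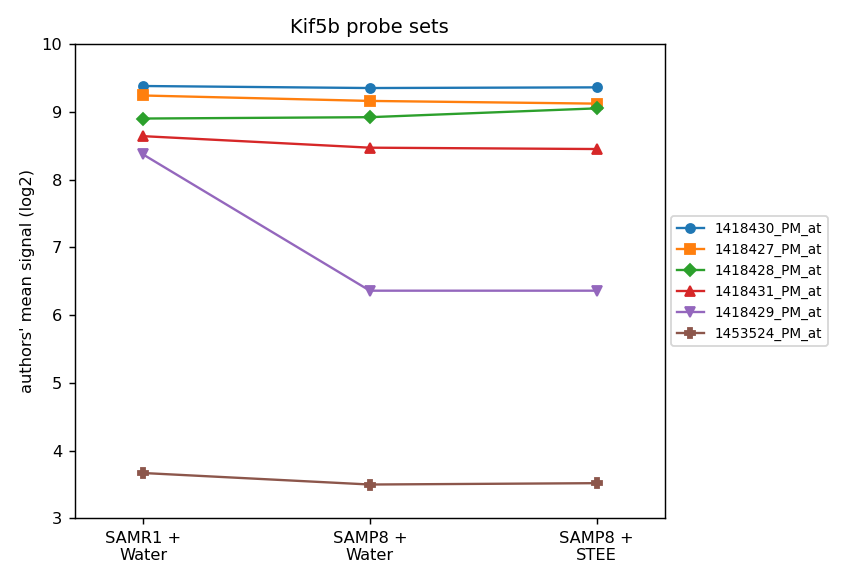
Authors' mean log2 signal (y axis) of the 6 Kif5b probe sets in the 3 groups (x axis), 1 line per probe set and 1 point per group mean, with no error bars because only group means were used. Probe set 1418429_PM_at goes from 8.37 in SAMR1 to 6.36 in both SAMP8 groups, while the other lines stay within 0.20 of their SAMR1 value.

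How far probe sets of 1 transcript usually disagree can be read from the same arrays. Among probe sets with a mean signal of at least 5, 2637 pairs from 1875 transcripts shared a design transcript, and their strain differences lay a median of 0.10 apart, with a 95th percentile of 0.362. In the 300 transcripts with at least 3 such probe sets, 952 probe sets could be set against the median of the other probe sets of their transcript. Kif5b probe set 1418429_PM_at lay -1.955 from that median, whereas its 4 companions spanned a range of 0.19. This was the largest deviation among the 952, of which 11, or 1.16%, deviated by at least 0.5 and 3, or 0.315%, by at least 1. Over the whole array, 10 of the 45077 probe sets, itself included, lay at least as far below SAMR1 in the SAMP8 control, and 27 (0.0599%) were as far in either direction. This yardstick describes the disagreement between probe sets on these arrays and does not contain the spread between mice. Neither the probe sequences nor a comparison of the strains' genomes at the probed sites was analysed here, and the cause of the low reading at 1418429_PM_at was not tested.

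**Figure D2:**
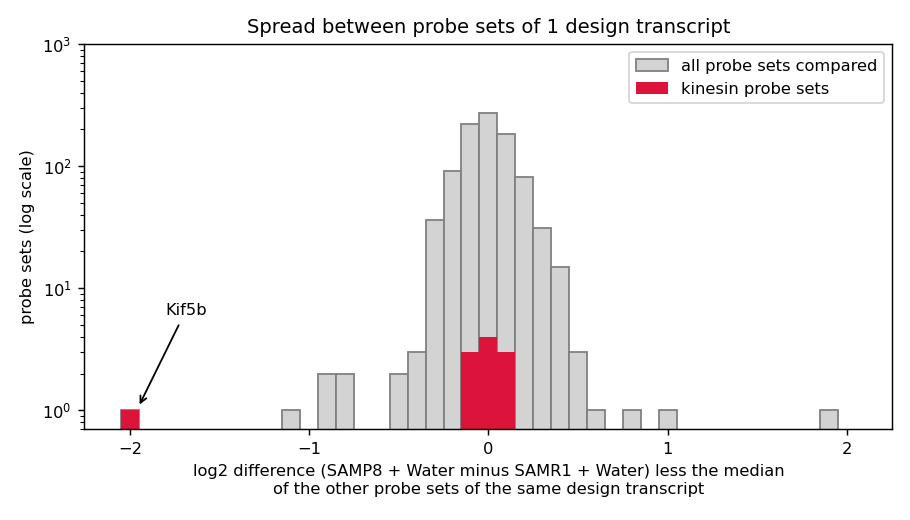
Number of probe sets (y axis, log scale) by how far their log2 strain difference (SAMP8 + Water minus SAMR1 + Water) lay from the median of the other probe sets of the same design transcript (x axis), for 952 probe sets in grey and for kinesin probe sets among them in red. Kif5b probe set 1418429_PM_at is the leftmost at -1.955, and the other kinesin probe sets lie near 0.

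The neuronal heavy chains showed small differences. Kif5a, which is prominent in axons, read 11.09 in SAMR1, 11.02 in SAMP8 control and 11.06 with STEE at its brightest probe set. Kif5c, which is neuronal as well, read 10.56, 10.60 and 10.60. Both genes lay within 0.07 of SAMR1 in either SAMP8 group, and their second probe sets, at 7.38, 7.39 and 7.42 for Kif5a and 9.94, 9.97 and 9.93 for Kif5c, differed no further. The remaining ones, 1450804_PM_at and 1457255_PM_x_at for Kif5c and 1427635_PM_at for Kif5a, had strain differences of -0.07, 0.03 and 0.18, the last at a signal of 3.41 in SAMR1.

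Among the light chains, which bind cargo and keep an idle motor folded, Klc1 repeated the picture of Kif5b in the opposite direction and at a smaller scale. Its brightest probe set, 1417005_PM_at, read 10.51, 10.61 and 10.59, and a second probe set of the same design transcript, 1448541_PM_at, read 7.21, 7.80 and 7.82. The strain difference was 0.10 at the first and 0.59 at the second, a gap of 0.49 where pairs on this array had a 95th percentile of 0.362. Probe set 1428881_PM_at, designed against another transcript, read 5.69, 5.75 and 5.62. Klc2 read 5.85, 5.85 and 5.80, and Klc4 read 5.27, 5.32 and 5.20. Klc3, a light chain best known from testis, was dim at 3.20, 3.36 and 3.10. No light chain other than Klc1 had a probe set past 1.2-fold in either comparison, Klc3 falling just short with STEE at -0.26. Between the strains, 0.876% of all probe sets were as far from 0 as 1448541_PM_at.

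Kinesin-3, whose motors carry synaptic vesicle precursors, endosomes and dense-core vesicles, held both genes that passed 1.2-fold between the strains by their brightest probe set. Kif1c, a motor of dense-core vesicles and of messenger RNA, read 6.89, 6.54 and 6.51, a strain difference of -0.35. Both SAMP8 groups lay below SAMR1 and close to each other. The other 3 Kif1c probe sets were dim, with SAMR1 signals of 3.28 to 4.04, and differed between the strains by 0.09, 0.00 and -0.12, so that only 1 of the 4 carried the difference. The probe set at 0.09, 1424747_PM_at, was designed against the same transcript as the bright one.

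For Kif13a, a motor of recycling endosomes and of mannose-6-phosphate receptor vesicles, 4 of 5 probe sets were lower in SAMP8 control. The brightest, 1455746_PM_at, read 6.03, 5.72 and 5.79, a strain difference of -0.31. Probe set 1447853_PM_x_at, whose suffix marks probes that may also bind other transcripts, read 4.96, 4.49 and 4.57, a difference of -0.47. At 1439532_PM_s_at and 1442252_PM_at the strain differences were -0.16 and -0.12, and at 1451890_PM_at, the dimmest, it was 0.05. Kif13a was thus the one kinesin gene with 2 probe sets past 1.2-fold in the same direction, and these were designed against different transcripts.

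Markers of oligodendrocytes and myelin were lower in SAMP8 control as well, in 6 of 6 genes with a median of -0.325. They were Mog (-0.63), Mobp (-0.39), Cnp (-0.34) and Mag (-0.31) past 1.2-fold, and the other two short of it; group signals on this list ran from 6.30 to 12.18 in SAMR1 and from 5.67 to 12.03 in SAMP8 control. Kif1c and Kif13a were lower by amounts near the median of this list, and whether a smaller share of oligodendrocyte RNA had a part in their difference was not tested.

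Kif1b, which carries mitochondria and synaptic vesicle precursors in its different isoforms, had 7 probe sets, the most of any kinesin gene. The brightest, 1423994_PM_at, read 10.37, 10.39 and 10.40. Those with the next highest signal, 1451200_PM_at at 9.73, 9.69 and 9.67 and 1423995_PM_at at 8.79, 8.65 and 8.59, differed by -0.04 and -0.14 between the strains. Both are of the same design transcript as the brightest. Probe set 1455182_PM_at, designed against a transcript of its own, read 4.37, 4.77 and 4.22, a strain difference of 0.40 and a difference with STEE of -0.55. Only SAMP8 control stood out at this probe set, and both differences rest on its mean. The signal was near the median of all probe sets on the array, 4.15, and STEE-fed SAMP8 differed from SAMR1 by -0.15. Probe set 1425270_PM_at read 5.46, 5.29 and 5.05 and differed by -0.17 between the strains and by -0.24 with STEE. Another of its design transcript, 1451642_PM_at, was dim at 3.61, 3.55 and 3.36, with differences of -0.06 and -0.19. Probe set 1451762_PM_a_at read 6.91, 6.90 and 6.97. With STEE, 5 of the 7 Kif1b probe sets were lower and 2 higher, with a mean of -0.14.

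**Figure D3:**
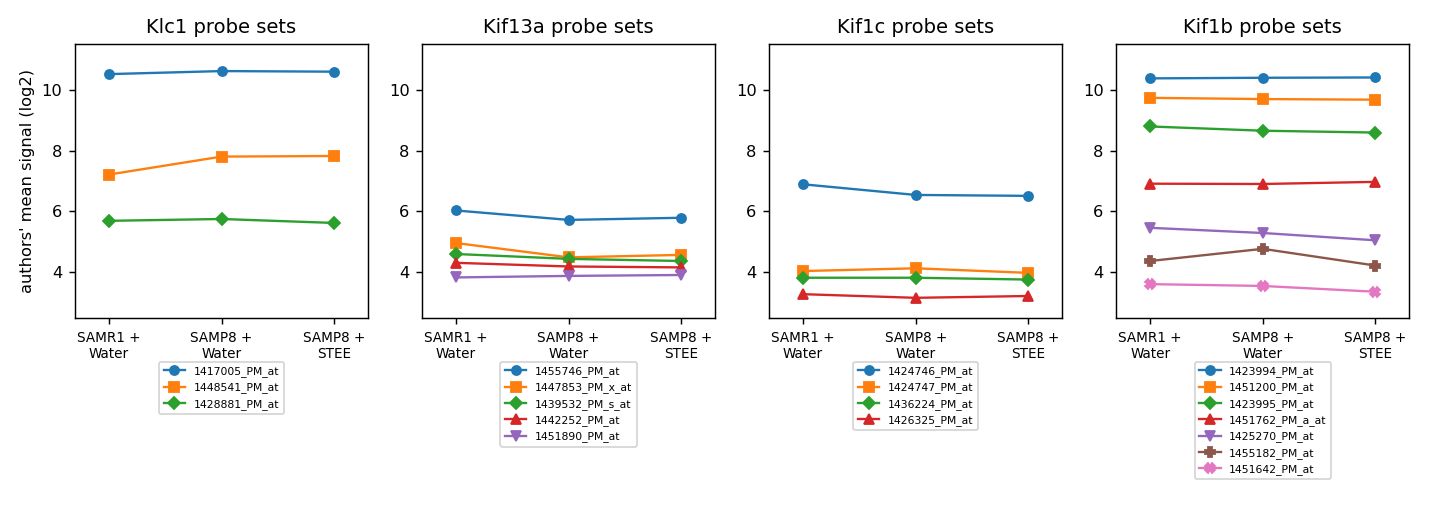
Authors' mean log2 signal (y axis) in the 3 groups (x axis) of every probe set of Klc1, Kif13a, Kif1c and Kif1b, 1 panel per gene and 1 line per probe set, with no error bars because only group means were used. Klc1 probe set 1448541_PM_at is higher in both SAMP8 groups, the brightest probe sets of Kif13a and Kif1c are lower in both, and Kif1b probe set 1455182_PM_at is high in SAMP8 control alone.

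Kif1a, the principal motor of synaptic vesicle precursors, read 6.91, 6.86 and 6.94 at one probe set and 5.74, 5.96 and 6.04 at a second of the same design transcript, where the strain difference was 0.22. Kif13b read 5.88, 5.85 and 5.70 and Kif16b, an endosomal motor, 4.39, 4.47 and 4.48. Kif14, a motor of cell division placed in kinesin-3 by its sequence, was among the dimmest at 2.48, 2.49 and 2.42.

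Kinesin-2 is the family that moves cargo within cilia and carries membrane cargo in neurons. All 5 of its genes were slightly higher in SAMP8 control, by 0.01 to 0.14 with a median of 0.10. Over all 22527 genes, 10613 were higher. Kifap3, the adaptor subunit that joins the 2 motor subunits of the complex, read 9.50, 9.60 and 9.63 at one probe set and 8.49, 8.53 and 8.58 at the other. Kif3a read 7.99, 8.13 and 8.08, and its 4 probe sets were higher by 0.06 to 0.14. Kif3b read 6.69, 6.75 and 6.65. Kif3c was 0.12 higher at the brighter of its probe sets and 0.09 lower at the other, which read 7.28 in SAMR1 and 7.19 in SAMP8 control. Kif17, a dendritic motor of glutamate receptor vesicles, read 5.65, 5.66 and 5.68. None of the kinesin-2 probe sets reached 1.2-fold in either comparison.

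Among the remaining transport and regulatory kinesins, Kif21a of kinesin-4, which slows microtubule growth, read 8.86, 8.80 and 8.79. Kifc2 of kinesin-14, a family of minus-end-directed motors, read 9.31, 9.27 and 9.37. Kif2a, the kinesin-13 that trims microtubules in growing axon branches, read 7.84, 7.88 and 7.84. These genes lay within 0.10 of SAMR1 in both SAMP8 groups. Kif26b, of the kinesin-11 family whose members bind microtubules without typical motor activity, read 3.82, 3.93 and 3.77, and Kif6 of kinesin-9, a family linked to motile cilia, read 4.02, 3.97 and 4.0.

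Most kinesins of cell division were dim, Kif18b, Kif22 and Kif2c being above the array median of 4.15, and none had a probe set past 1.2-fold in either comparison. Kif11, the spindle motor that pushes the poles apart, was dim at 3.10, 3.32 and 3.07. All 3 of its probe sets were higher in SAMP8 control, by 0.13 to 0.22, and lower with STEE, by -0.25 to -0.04. Both differences use the same SAMP8 control means, and the probe sets read the same RNA. Whether the extract changed Kif11 was not tested. Kif23 of kinesin-6, which acts in the midzone of dividing cells, read 3.34, 3.25 and 3.22, Kif15 of kinesin-12 read 4.24, 4.02 and 4.17, and Kif18b of kinesin-8 read 5.12, 4.94 and 4.98. Kif22, a chromosome-arm motor of kinesin-10, read 5.56, 5.39 and 5.50 at a probe set with the suffix for possible cross-binding, whereas its other 2 probe sets lay between 2.75 and 2.90. The 8 markers of dividing cells were dim in the same way, with median signals of 3.41, 3.51 and 3.465, strain differences of -0.02 to 0.19 and none past 1.2-fold. In all, 19 of the 45 kinesin genes had a mean signal at or below the array median of 4.15, which is taken over all probe sets. The share of all genes at or below it is not given here. With genes read at their brightest probe set, the median signal in SAMP8 control was 4.94 for kinesins and 4.74 for all genes. Kifc1 and Kifc5b shared their brightest probe set, at 3.74, 3.76 and 3.91, and cannot be told apart at it. Probe set 1456136_PM_at, of Kifc5b alone, read 2.76, 2.71 and 2.73. The shared probe set stands for both genes in the counts by gene.

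Counted by probe set, 6 of 113 kinesin probe sets (5.31%) reached 1.2-fold between the strains, against 7.11% of all probe sets. They were the single ones named above of Kif5b and Kif1c, both named ones of Kif13a, all lower in SAMP8 control, and those of Klc1 and Kif1b, both higher. At least 1 probe set reached it in 5 of the 45 genes (11.1%), against 11.3% of all genes. A difference of at most 0.1 was found in 66.4% of the kinesin probe sets and in 64.0% of all probe sets.

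**Figure D4:**
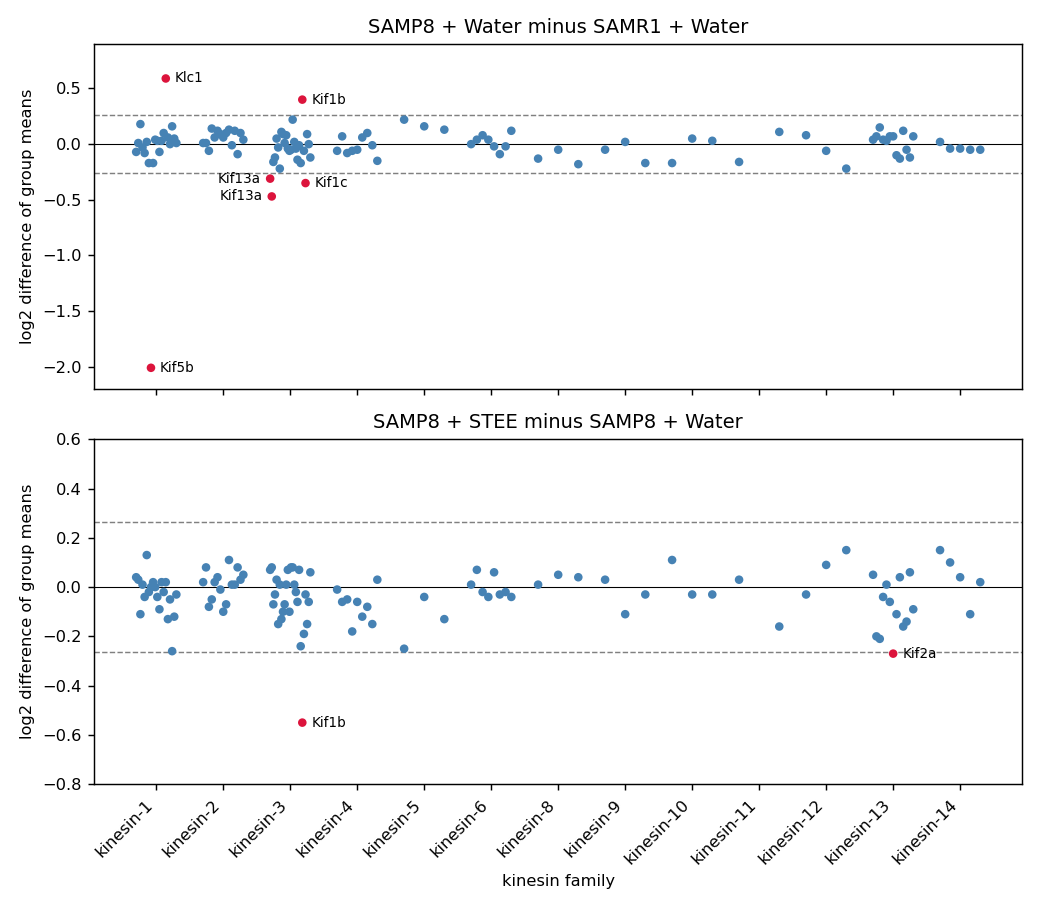
Log2 difference of group means (y axis) for each of the 113 kinesin probe sets, placed by kinesin family (x axis), for the strains (upper panel) and for STEE (lower panel, with another y range); dashed lines mark 1.2-fold and red points with gene names lie past it. Kif5b probe set 1418429_PM_at at -2.01 stands alone in the upper panel, and 2 points lie past the line in the lower one.

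The effect of the extract was asked by setting STEE-fed SAMP8 against SAMP8 control. None of the 45 kinesin genes reached 1.2-fold by its brightest probe set, where 2.02% of all genes did. The median difference was 0.01, against 0.00 over all genes, 21 genes were lower, 23 higher and 1 equal, and the range was -0.26 for Klc3 to 0.15 for Kif15 and the probe set shared by Kifc1 and Kifc5b. The genes at both ends of that range were dim. Of the probe sets, 2 of 113 (1.77%) reached 1.2-fold, both lower, against 2.01% of all probe sets in either direction and 0.976% downward. One was Kif1b probe set 1455182_PM_at, described above, at -0.55, a distance from 0 that 0.122% of all probe sets had. The other was Kif2a probe set 1454107_PM_a_at, which read 4.86, 4.93 and 4.66, a difference of -0.27, while the 2 brightest Kif2a probe sets differed by -0.04 and 0.01.

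With STEE, Kif5b probe set 1418428_PM_at differed by 0.13, and the other bright Kif5b probe sets lay between -0.04 and 0.01. Pairs of probe sets of 1 design transcript lay up to 0.22 apart in this comparison at the 95th percentile, so the Kif5b probe sets differed among themselves by less than that. The kinesin-4 genes were lower with STEE in 4 of 5, against 10576 of all 22527 genes, with a median of -0.12. Kif21b, a motor and microtubule regulator of dendrites, led them at 6.76, 6.70 and 6.52. Kif4, Kif27 and Kif7 of this family were at signals under 5, and Kif21a differed by -0.01.

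STEE-fed SAMP8 was also set against SAMR1, a comparison that shares its arrays with the other 2 comparisons and is given to show where the treated group lay. Of the kinesin genes, 1 of 45 (2.22%), Kif1c at -0.38, reached 1.2-fold by its brightest probe set, against 7.38% of all genes. The median difference was -0.04, against -0.01 over all genes. By probe set, 6 of 113 reached it, against 7.85% of all probe sets. They were Kif5b 1418429_PM_at at -2.01, Klc1 1448541_PM_at at 0.61, Kif1c 1424746_PM_at at -0.38, Kif13a 1447853_PM_x_at at -0.39, Kif1b 1425270_PM_at at -0.41 and Kif1a 1450108_PM_at at 0.30. At the first 4 of these, STEE-fed SAMP8 lay within 0.08 of SAMP8 control.

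The partners of the kinesins were read from lists of cargo adaptors, of the opposing motor and of the track. Each partner gene was read at its brightest probe set, and further probe sets were read for Dcx alone. Of 22 adaptors and regulators that link kinesins to mitochondria, vesicles and receptors, 3 (13.6%) reached 1.2-fold between the strains, where 6.86% of all genes did. Grip1, which couples glutamate receptors to Kif5 heavy chains, was lower at 5.60, 5.28 and 5.46, and Ppfia4, a liprin that binds Kif1a, at 6.27, 5.96 and 6.06. The array has 2 probe sets for Grip1 and 3 for Ppfia4. Fez2, of the family of kinesin-1 adaptors that includes Fez1, was higher at 6.08, 6.46 and 6.40. Fez1 itself, the brightest of the list, read 9.27, 9.39 and 9.37. The list had a median strain difference of -0.035, and with STEE a median of 0.02 and no gene past 1.2-fold.

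Dynein, with its activator dynactin, is the motor that carries cargo back toward the cell body. Of 23 genes, 4 (17.4%) reached 1.2-fold between the strains, against the same 6.86% of all genes, and the list's median was 0.04. Dctn3, a dynactin subunit measured by 1 probe set, read 7.97, 9.52 and 9.65, a strain difference of 1.55 or 2.93-fold in linear terms. Dctn5 was higher at 7.13, 7.53 and 7.63, whereas Dctn4 was lower at 8.53, 8.21 and 8.28. Only the brightest of 2 probe sets was read for Dctn5, and of 6 for Dctn4. Dynlt1b was lower at 8.44, 7.92 and 8.06, by a probe set that also lists other Dynlt1 copies. By their brightest probe sets, dynactin subunits thus differed in opposite directions, and Dynll1, the brightest of the list, read 10.94, 11.09 and 11.06. With STEE the median was 0.06, 17 genes were higher, 3 lower and 3 equal, and none reached 1.2-fold. Of all 22527 genes, 10903 were higher with STEE, 10576 lower and 1048 equal. The list was brighter than the array, with a median signal of 8.64 in SAMP8 control against 4.74 over all genes. Whether signal level had a part in the direction was not tested.

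Of 22 tubulins and microtubule-associated proteins, 1 (4.55%) reached 1.2-fold in each comparison, against 6.86% of all genes between the strains and 2.02% with STEE. Tubb2b, a beta-tubulin of developing neurons, was the one between the strains, at 8.74, 8.45 and 8.50. Dcx, the doublecortin of immature neurons, was the one with STEE, at 6.71, 6.84 and 6.55, while its other 3 probe sets differed by -0.19, -0.12 and 0.03. Tuba1b, the brightest, read 11.68, 11.66 and 11.60, and the medians were 0.045 between the strains and -0.005 with STEE. A pair of kinesin genes whose symbols fall outside the naming rule were read as well: Cenpe, a kinetochore motor, at 3.36, 3.32 and 3.38, and Stard9, a centrosomal kinesin-3, at 5.55, 5.36 and 5.23.

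**Figure D5:**
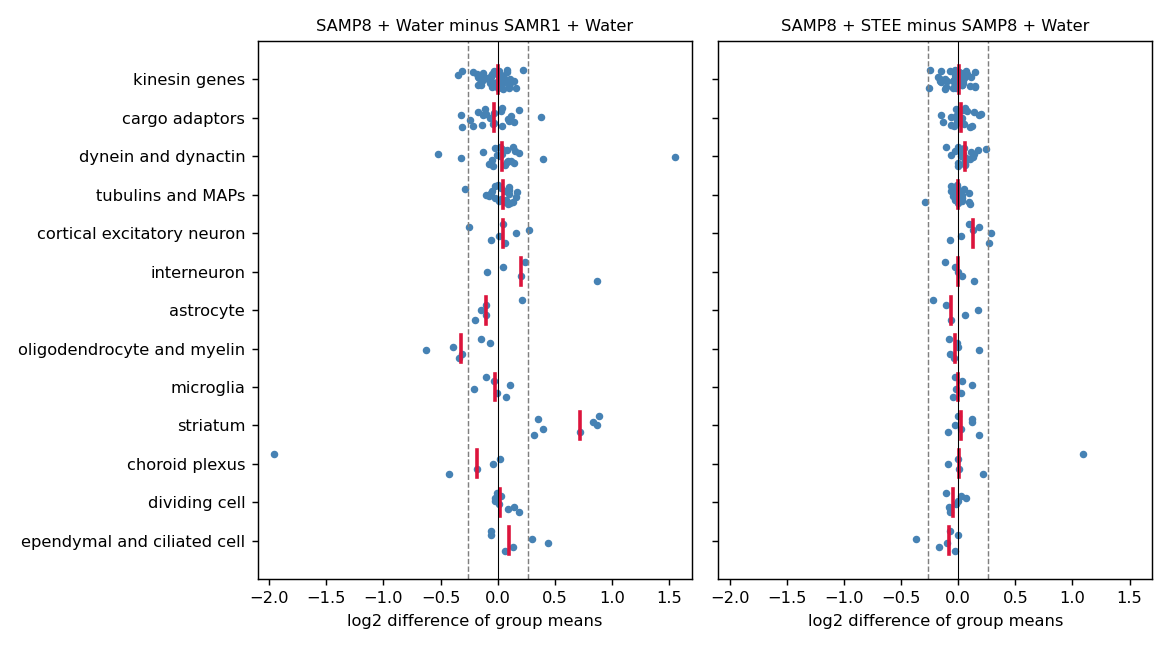
Log2 difference of group means (x axis, the same range in both panels) for kinesin genes, partner lists and cell type markers (y axis), 1 point per gene by its brightest probe set, with the list median as a red bar and 1.2-fold as dashed lines. Kinesin genes centre on 0.00 between the strains and 0.01 with STEE, while oligodendrocyte markers lie lower and striatal markers higher in SAMP8 control.

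Markers of other cells and regions differed between the strains beside the kinesins. All 7 measured striatal markers were higher in SAMP8 control, by 0.32 to 0.89 with a median of 0.72, and their SAMR1 signals ran from 6.21 to 9.0, so that striatal transcripts were present in samples labelled as cerebral cortex. The 7 markers of cortical excitatory neurons had a median strain difference of 0.05, those of astrocytes -0.10 and those of microglia -0.02. Interneuron markers had a median of 0.20, led by Vip at 0.87, and the dim markers of ependymal and ciliated cells one of 0.095. The 5 choroid plexus markers had medians of -0.18 between the strains and 0.01 with STEE, with Ttr at 10.20, 8.24 and 9.33, differences of -1.96 and 1.09, and Kcnj13 at -0.43 between the strains past 1.2-fold. With STEE, the striatal and oligodendrocyte lists had medians of 0.02 and -0.025, and none of their genes reached 1.2-fold. Cortical excitatory neuron markers were higher with STEE in 6 of 7, against 10903 of all 22527 genes, with a median of 0.13. Of these markers, Tbr1 (0.29) and Fezf2 (0.27) reached 1.2-fold. The ependymal and ciliated list had a median of -0.085 with STEE, and Tmem212 of that list differed by -0.37. The part of tissue composition in the strain differences of Kif5b, Kif1c, Kif13a, Klc1 and Kif1b, or in the differences of kinesins with STEE, was not tested.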

How the data were processed

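Cerebral cortex RNA was amplified with the 3' IVT PLUS kit and hybridised to Affymetrix mouse array strips. Per the labels and methods, the authors summarised the arrays with RMA in Affymetrix Expression Console and averaged groups in Transcriptome Analysis Console, with versions not given in the sources used here. The 2 deposited tables hold log2 group means to 2 decimals for 45077 probe sets, and the SAMP8 + Water means are the same in both. They also hold the authors' fold changes, p-values and FDR p-values, which were not used. Means of 2 samples limit the precision, and no spread is given here, since values for single samples were not analysed and the authors' p-values were left out.

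Samples were grouped by label. Differences of group means were computed with Python 3.11.15, pandas 2.3.3 and numpy 2.4.6, and drawn with matplotlib 3.10.9; the calculations were checked on simulated data. Symbol entries were split where a probe set lists several. A gene stood for its probe set with the highest mean log2 signal over the 3 groups, and every Kif5b probe set was shown. Genes to be named were all of kinesin-1, the brightest gene of each other family, genes past 1.2-fold, and for partner lists those past 1.2-fold and the brightest; further members were named after their values were seen, to complete a family or a count. Members, lists and thresholds were chosen with earlier results of these data known. No sequences are printed, since the tables pair none with the probe sets.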

Additional observations from a re-analysis of the deposited data

How the results depend on the processing

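Between the strains, 2 kinesin genes reached 1.2-fold. At 1.1-fold there were 11 (24.4%, against 24.8% of all genes), at 1.5-fold 0 (against 1.16%), and with every probe set counted, an alternative chosen after seeing the data, 6 probe sets. With a gene's probe sets averaged there was 1 (2.22%), and it was Kif5b at -0.407. Kif13a was then at -0.202 and Kif1c at -0.095, so that the genes counted depend on how probe sets are joined. Among kinesin genes with a mean signal of at least 5, the count was 2 of 23 (8.7%). The share of all genes was not computed for these 2 settings, so neither count can be set against the whole array. With STEE the count of 0 became 10 at 1.1-fold (22.2%, against 15.2% of all genes) and 2 with every probe set counted. The median strain difference of 0.00 became -0.03 among genes with a mean signal of at least 5, and the median with STEE of 0.01 became -0.013 with the mean over probe sets and -0.02 with every probe set. Equal medians for all groups, or only probe sets with 1 symbol, moved none of the 42 differences of named genes by more than 0.02, and the mean over probe sets moved 25 of them by more. No paired analysis was possible because only group means were used, and for the same reason leaving out a sample was not run. Signal limits the dim kinesins, 19 of 45 at or below the array median.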
